A study of Homo sapiens with 4 samples.

Results

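TRAIL, the death ligand encoded by TNFSF10, was followed here together with its receptors and the first proteins that act beneath them, as RNA in MDA-MB-231 cells. The 10 genes were taken by symbol after the deposited table's Entrez IDs had been matched to gene names, and all 10 were found among the 39259 genes of the table. The genes were chosen from values of this same contrast, the FPKM of libraries labelled KO against WT. They are the ligand TNFSF10, the death receptors TNFRSF10A, TNFRSF10B and FAS, the decoy receptors TNFRSF10C, TNFRSF10D and TNFRSF11B, the adaptor FADD, the protease CASP8 and its inhibitor CFLAR. The line MDA-MB-231 was established from a human breast cancer of the triple-negative class and has a mesenchymal look. The 4 libraries hold 2 of wild-type cells (WT) and 2 of cells labelled as an mdig knockout (KO). RIOX2 encodes mdig, an oxygenase of the JmjC family that is also known as MINA53. Cells of both groups grew in the same medium with serum, and the labels name no treatment, clone, guide or separate culture. What p-values measure is thus the spread among 4 libraries, and that spread may be technical.

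TRAIL is a membrane protein that can be shed and that binds as a trimer. When it engages TNFRSF10A (DR4) or TNFRSF10B (DR5), the receptors' death domains recruit FADD, and FADD recruits caspase-8, which is cut into its active form and starts apoptosis. TNFRSF10C and TNFRSF10D bind TRAIL but lack a working death domain, TNFRSF11B (osteoprotegerin) is a soluble receptor for TRAIL and RANKL, and CFLAR (c-FLIP) occupies the complex in place of caspase-8. FAS uses the same adaptor and protease with a ligand of its own. Breast cancer lines differ widely in their response to TRAIL, and mesenchymal triple-negative lines are known as the more sensitive ones.

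Facts of the whole series set the frame. The libraries hold 22503981 to 52163811 fragments assigned to genes, and WT replicate 2 is the shallowest. RIOX2 had 8.60 and 8.24 FPKM in WT against 9.23 and 9.82 FPKM in KO (fragments per kilobase of summed exons and 1000000 fragments assigned to genes), so its RNA was not lower where the label says knockout. The table gives no value per exon, so the RNA leaves the label unchecked. Directions are those between libraries as labelled. ESR1 and PGR, the hormone receptor genes, were at most 0.00117 FPKM, and CDKN2A, which this line has lost, was at 0 in all 4 libraries. ERBB2 measured 12.7 to 14.3 FPKM. VIM and CD44, which the line is known to express, differed in opposite directions. VIM was lower in KO (2000 against 2334 FPKM) and CD44 was higher (100.9 against 89.0 FPKM). Among markers of other cell types, COL1A1 and PECAM1 were higher in KO (2.85 against 1.98 FPKM and 1.36 against 0.977 FPKM), and their part in any result was not tested. PECAM1 passed the filter given below only through its KO level. The rest of the fibroblast and endothelial markers stayed under 0.05 FPKM in every library. The leukocyte markers summed to 1.34 and 1.39 FPKM in WT and to 0.968 and 0.720 FPKM in KO, mostly from CD14. All genes were fitted together with limma on log2(FPKM + 1), which understates the change of genes with low values, and genes averaging under 1 FPKM were left out. A gene counts as past the threshold at a Benjamini-Hochberg adjusted p under 0.05. Of 11716 genes tested, 49.9% were past it, 21.6% higher and 28.4% lower in KO.

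Start regions are shown for TNFSF10, which had the largest difference of the 10 genes, for FAS, which was lower in KO, and for CASP8, which hardly differed. Each runs 5′ to 3′ from 250 bases before a RefSeq start site (GRCh38.p14) to the first base that GENCODE 29 annotates as untranslated exon. The TNFSF10 stretch is chr3:172523508-172523680 on the minus strand, the FAS stretch is chr10:88990548-88990656 on the plus strand, and the CASP8 stretch is chr2:201233213-201233442 on the plus strand. The FAS stretch lies inside the deposited span of that gene, which begins at 88968429, so it does not precede the first counted base. Capitals mark matches, on either strand, to any of 6 motifs: the interferon-stimulated response element core (GAAA, any 2 bases, GAAA), the gamma-activated site TTCNNNGAA, the GC box GGGCGG, the AP-1 site TGANTCA, the TATA box TATAAA and the forkhead site TGTTTAC.
TNFSF10: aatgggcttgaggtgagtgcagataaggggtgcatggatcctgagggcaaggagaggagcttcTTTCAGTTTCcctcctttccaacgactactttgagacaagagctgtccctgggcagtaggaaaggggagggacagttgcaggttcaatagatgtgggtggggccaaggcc
FAS: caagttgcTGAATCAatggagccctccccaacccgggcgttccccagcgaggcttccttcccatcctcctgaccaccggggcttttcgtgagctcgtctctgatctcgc
CASP8: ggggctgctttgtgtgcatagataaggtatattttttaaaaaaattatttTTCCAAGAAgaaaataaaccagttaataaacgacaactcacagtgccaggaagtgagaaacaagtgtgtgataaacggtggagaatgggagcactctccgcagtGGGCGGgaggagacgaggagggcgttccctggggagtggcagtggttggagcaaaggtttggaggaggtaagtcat

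In the TNFSF10 stretch the capitals mark a single match to the interferon-stimulated core on the reverse strand, at positions −187 to −178 before the start site. Of 35116 start regions of the same 250 bases in the RefSeq table, 3.02% hold that core. Among the 12 entries that the table has for 5 of the genes (TNFSF10, FAS, FADD, CASP8 and CFLAR), 1 does. Nearer to its start, beyond the stretch shown, TNFSF10 has a TATA box at −31 to −26, a motif found in 10.7% of all entries and in 2 of the 12. The FAS stretch holds an AP-1 match at −242 to −236 (6.57% of all entries, 3 of the 12). Beyond it, nearer to the same start, lies a GC box at −60 to −55. FAS and CASP8 have further start sites among the 12 entries, some with other matches, which are not shown. In the CASP8 stretch a gamma-activated site lies at −200 to −192 (6.57% of all entries, 1 of the 12) and a GC box at −96 to −91 (42.6% of all entries, 7 of the 12). The forkhead letters were in 2.98% of all entries and in 0 of the 12. No listed motif overlapped another in the stretches shown. These matches describe letters in the reference sequence, and binding was not measured.

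TNFSF10 was the gene of the 10 that differed most. It lies on chromosome 3 (172505508 to 172523430, minus strand, coordinates as deposited, which match GRCh38), and the values given are sums over its exons. The WT libraries held 182 and 100 fragments of it, or 1.35 and 1.49 FPKM, and the KO libraries 969 and 1138 fragments, or 6.65 and 7.30 FPKM (replicate 1 first, here and throughout). Both KO libraries thus stood well above both WT libraries, and the groups did not overlap. The mean was 1.42 ± 0.0982 FPKM in WT and 6.98 ± 0.461 FPKM in KO, a 4.92-fold difference (each mean and SD is over n = 2 libraries, here and for other genes). The difference on the log2(FPKM + 1) scale was 1.72 (SE 0.068), rank 11 from the top of 11716 tested genes. With fragments summed over each group the ratio was 5.01 (95% exact interval 4.42 to 5.69, counting error only). Because this contrast chose the genes, the values of all 10 are a description and no p is given for them.

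**Figure D1:**
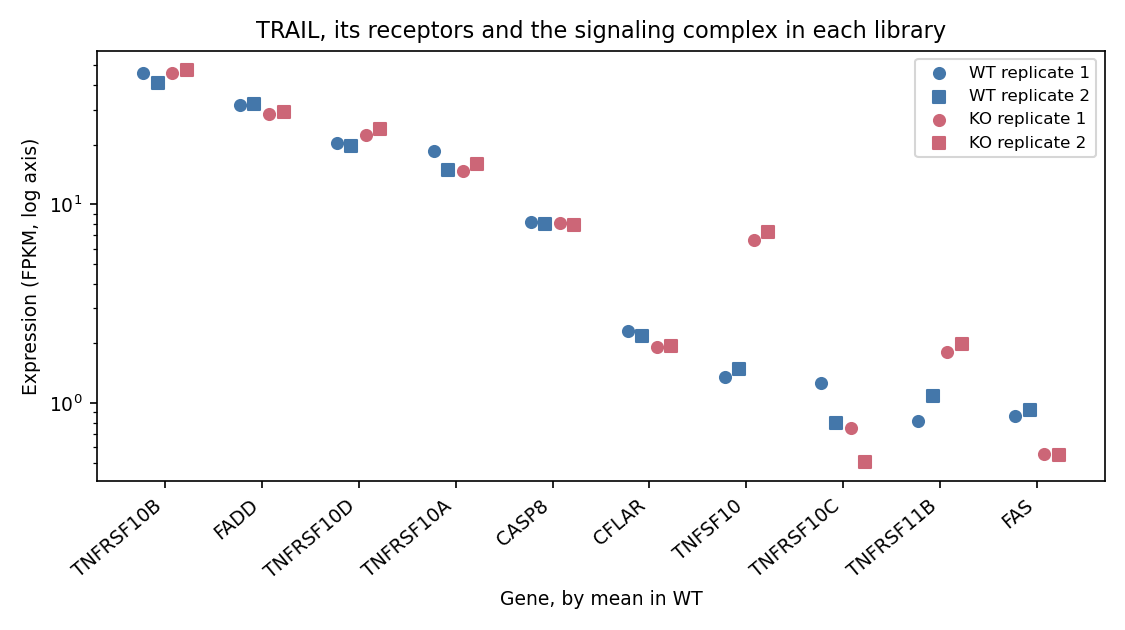
Expression of the 10 genes in each of the 4 libraries, in FPKM on a log axis, with genes ordered by their mean in WT. Blue points are WT and red points are KO, circles are replicate 1 and squares replicate 2. The WT points of TNFSF10 lie near those of TNFRSF10C and FAS and its KO points near those of CASP8, while the genes at the left differ little between libraries.

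The death receptor TNFRSF10B (chromosome 8, 23020133 to 23069031, minus strand) was the most abundant of the 10 genes in every library. It measured 45.7 and 40.8 FPKM in WT and 45.7 and 47.2 FPKM in KO. KO replicate 1 exceeded WT replicate 1 by less than 0.05 FPKM, so the groups met almost at one value. TNFRSF10A (chromosome 8, 23190452 to 23225102, minus strand), the other death receptor for TRAIL, measured 18.5 and 15.0 FPKM in WT and 14.7 and 16.0 FPKM in KO. Here the groups overlapped, and the WT libraries differed from each other more than the group means did. The log2 differences were 0.10 (SE 0.065) for TNFRSF10B and −0.11 (SE 0.10) for TNFRSF10A. Neither gene was past the threshold, and both differences depended on the WT library kept. TNFRSF10A stood at −0.25 without WT replicate 2 and at 0.033 without WT replicate 1. TNFRSF10B stood at 0.024 without WT replicate 2 and at 0.18 without WT replicate 1. A fit with 1 WT library has no WT spread, so its calls are not given for these genes. TNFRSF10B shares 67 exon bases with RHOBTB2 on the opposite strand, a gene at 1.71 to 2.01 FPKM.

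Among the decoys, TNFRSF10D (chromosome 8, 23135588 to 23164027, minus strand) was well expressed and somewhat higher in KO. It measured 20.3 and 19.6 FPKM in WT and 22.3 and 23.8 FPKM in KO, a difference of 15.6%, with no overlap between the groups. On the log2 scale this was 0.20 (SE 0.058), past the threshold, but not past it without KO replicate 1 (0.25), without KO replicate 2 (0.15) or with no filter on low values (0.20). TNFRSF10C (chromosome 8, 23102921 to 23117445, plus strand), a decoy anchored by a lipid, averaged near the filter of 1 FPKM and had the fewest fragments of the 10 genes over the 4 libraries. It had 80 and 25 fragments in WT and 51 and 37 in KO, which are 1.27, 0.796, 0.750 and 0.508 FPKM. The KO libraries were the lower ones, by a fragment ratio of 0.562 (95% exact interval 0.419 to 0.753, counting error only), yet KO replicate 1 lay close to WT replicate 2. Its WT mean was 1.03 FPKM, and only through its KO level was its mean over the 4 libraries under 1 FPKM. It was thus not tested, and with no filter its difference of −0.31 was not past the threshold. TNFRSF10C shares 261 exon bases with the noncoding gene LOC254896 on the same strand. Reads from such bases can be dropped or assigned to either gene.

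Osteoprotegerin, TNFRSF11B (chromosome 8, 118923557 to 118951885, minus strand), lies far from the other receptor genes of that chromosome. It measured 0.817 and 1.09 FPKM in WT and 1.82 and 1.99 FPKM in KO, from 77, 51, 185 and 217 fragments. Both KO libraries were above both WT libraries, and the fragment ratio was 2.11 (95% exact interval 1.72 to 2.59, counting error only). The log2 difference was 0.58 (SE 0.083). Its WT mean of 0.951 FPKM was under the filter, so TNFRSF11B was tested only through its KO level and its being past the threshold supports nothing. With a pseudocount of 0.1 the difference was 0.94, and with voom on fragments 1.07.

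FAS (chromosome 10, 88968429 to 89017059, plus strand) went the other way from the TRAIL ligand. It measured 0.862 and 0.928 FPKM in WT and 0.556 and 0.548 FPKM in KO, from 369, 198, 257 and 271 fragments. Both KO libraries lay below both WT libraries, and the fragment ratio was 0.624 (95% exact interval 0.554 to 0.704, counting error only). FAS was not tested because its mean was under 1 FPKM, and with no filter its difference of −0.29 was past the threshold, as were 19.0% of the genes in that fit. Its low FPKM depends on the length used. The table gives FAS 9480 exon bases, against a median of 1383 for its 4 coding transcripts in the GENCODE 29 basic set. FAS shares 202 exon bases with ACTA2 on the opposite strand, and the strand setting of the counting is not given in the sources used here. ACTA2 measured 0.980 and 0.614 FPKM in WT and 1.08 and 1.20 FPKM in KO. In bulk RNA, fewer expressing cells and less RNA per cell cannot be told apart.

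The genes of the signaling complex differed little. FADD (chromosome 11, 70203296 to 70207390, plus strand), the adaptor, measured 31.5 and 31.9 FPKM in WT and 28.5 and 29.1 FPKM in KO. CASP8 (chromosome 2, 201233443 to 201287711, plus strand), the initiator protease, measured 8.15 and 7.99 FPKM in WT and 8.07 and 7.88 FPKM in KO. CFLAR (chromosome 2, 201116164 to 201176687, plus strand), its inhibitor, measured 2.31 and 2.19 FPKM in WT and 1.92 and 1.94 FPKM in KO. The KO libraries were the lower ones for FADD and CFLAR without overlap, and the groups overlapped for CASP8. On the log2 scale the differences were −0.14 (SE 0.052) for FADD, −0.15 (SE 0.062) for CFLAR and −0.015 (SE 0.056) for CASP8. None of these was past the threshold. CFLAR was past it as lower with voom on fragments (−0.23), and FADD with a crossed replicate block (−0.14). Without WT replicate 2 CFLAR stood at −0.18, and without WT replicate 1 FADD stood at −0.14. For CASP8 the sign itself turned with median-of-ratios scaling (0.026) and without KO replicate 2 (0.00037).

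Over the 10 genes, 8 did not overlap between the groups, 4 higher and 4 lower, and no such share was computed over untested genes. Of the 8 tested genes 6 did not overlap, against 77.5% of all tested genes (32.9% higher and 44.6% lower). Of the same 8 genes 3 were past the threshold as higher (TNFSF10, TNFRSF10D and TNFRSF11B) and 0 as lower. Of all tested genes 49.9% were past it, 21.6% higher and 28.4% lower. TNFRSF11B entered the tested genes only through its KO level. The median log2 difference of the 8 genes was 0.044, beside −0.041 over all tested genes. The contrast was used to choose the genes, so these are descriptions on the values that chose them, and nothing is read from the counts.

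**Figure D2:**
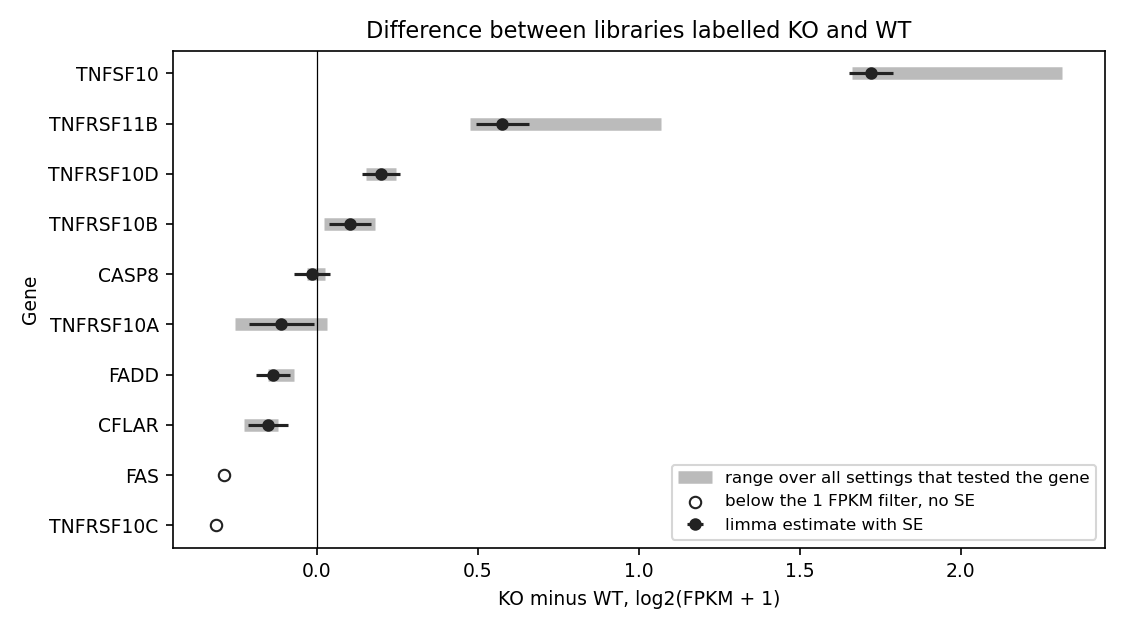
Difference between KO and WT libraries on the log2(FPKM + 1) scale for each of the 10 genes. Black points are limma estimates with their SE, open points are FAS and TNFRSF10C, which were under the filter, and grey bars span all settings that tested the gene. The bars of TNFSF10 and TNFRSF11B extend to 2.32 and 1.07, and those of TNFRSF10A and CASP8 cross 0.

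FPKM is per length of the table's summed exons, so the order of levels between genes depends on that length. In WT the order of mean FPKM ran from TNFRSF10B (43.3) through FADD (31.7), TNFRSF10D (19.96), TNFRSF10A (16.7), CASP8 (8.07), CFLAR (2.25), TNFSF10 (1.42), TNFRSF10C (1.03) and TNFRSF11B (0.951) to FAS (0.895). The values of TNFRSF10C overlapped those of TNFRSF11B, and those of TNFRSF11B overlapped those of FAS. All other neighbours in this order were apart in both WT libraries. In KO TNFSF10 moved from place 7 to place 6, above CFLAR, and TNFRSF11B from place 9 to place 8. TNFRSF10C overlapped with FAS there, and CFLAR with TNFRSF11B. Per median coding transcript of GENCODE 29, TNFRSF10B remained at place 1 in both groups and CFLAR stood at place 2, with a mean level of 31.99 in WT and 27.4 in KO. On that scale TNFSF10 was at 2.37 in WT and 11.7 in KO, below CFLAR in both groups, and its place went from 8 to 7, while FAS was at place 7 in WT and 8 in KO. TNFRSF10B stood above 88.3% of all tested genes in WT by FPKM, CASP8 above 48.7% and TNFSF10 above 6.08%.

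Ratios within a library set decoys against death receptors. The summed FPKM of TNFRSF10C and TNFRSF10D was 0.336 and 0.366 of that of TNFRSF10A and TNFRSF10B in WT and 0.382 and 0.385 in KO. The KO libraries were higher, though the step from WT replicate 2 to KO replicate 1 was smaller than the step between the WT libraries. TNFRSF10B was 2.47 and 2.73 times as abundant as TNFRSF10A in WT and 3.11 and 2.95 times in KO. The ratio of CFLAR to CASP8 was 0.283 and 0.274 in WT and 0.238 and 0.246 in KO, lower in both KO libraries. That ratio does not give the balance of the proteins' RNAs, since the table's exon length for CFLAR is 23400 bases, 14.2 times the median of its 12 coding transcripts (1646 bases). Per median coding transcript the same fragments gave ratios of 2.12 and 2.05 in WT and 1.78 and 1.83 in KO, so inhibitor and protease change places. The change of length rescales all libraries alike, so the order of the libraries could not change. With 2 libraries per group no exact test of these ratios can reach 0.05, and none was run. CFLAR also shares 158 exon bases with the antisense gene CFLAR-AS1, which measured 0.829 and 0.811 FPKM in WT and 0.335 and 0.295 FPKM in KO.

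The wider pathway was read from 8 lists of 85 genes, of which 65 were tested. In KO 13 rose and 16 fell, which is 44.6% past the threshold against 49.9% of all tested genes, and the median difference was −0.039 beside −0.041. Directions were mixed in most lists. Without KO replicate 1 the counts were 8 and 8, without KO replicate 2 they were 7 and 9, and with median-of-ratios scaling 15 rose and 9 fell.

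Of 11 tested adaptors and death-effector-domain proteins, 1 rose and 4 fell (median −0.021). PEA15, a death-effector-domain protein that restrains caspase-8 recruitment, fell from 159 ± 6.24 to 99.3 ± 2.62 FPKM (log2 −0.67, SE 0.054, limma adjusted p = 6.6e-05). TNFAIP3 (A20), an enzyme that edits ubiquitin chains, fell from 2.83 ± 0.138 to 1.66 ± 0.00912 FPKM (−0.53, adjusted p = 0.00037). TRAF2, an adaptor that ubiquitinates caspase-8, fell by 0.31 and DEDD2 by 0.21, while FAF1, a FAS-binding protein, rose by 0.17. DEDD2 was not past the threshold without KO replicate 1 (−0.25) or KO replicate 2 (−0.17), nor was FAF1 (0.19 and 0.15). With no filter both missed it (−0.21 and 0.17), and DEDD2 did so with median-of-ratios scaling (−0.16). Of 8 genes of the linear ubiquitin and kinase branch, RBCK1 rose by 0.25 and SHARPIN fell by 0.25. Both encode subunits of the linear ubiquitin ligase. The call on RBCK1 was lost without KO replicate 1 (0.24) or 2 (0.26), and SHARPIN was past the threshold in 7 of the 14 settings, the reported one included.

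The 14 execution and mitochondrial genes were all tested, and 2 rose and 3 fell (median −0.13). CASP6, an effector caspase, rose from 7.92 ± 0.430 to 13.3 ± 0.0959 FPKM (0.68, SE 0.059, limma adjusted p = 9.2e-05). DIABLO, which frees caspases from their inhibitors, fell by 0.27, and so did PARP1, a caspase substrate. Without KO replicate 1 the call on PARP1 was lost (−0.25).

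Brakes on caspases and mitochondria split evenly, with 3 of 8 tested rising and 3 falling (median 0.027). XIAP, a direct inhibitor of caspases, rose from 4.36 ± 0.262 to 8.07 ± 0.239 FPKM (0.76, SE 0.063, limma adjusted p = 7.07e-05). BIRC2 and BIRC3, the cIAP ligases, fell by 0.24 and 0.30. Of the BCL2 family, MCL1 and BCL2L2 rose by 0.22 and 0.26, while BCL2L1 fell by 0.16 (from 194.8 to 174.3 FPKM). Settings other than the reported one are not given for BCL2L1. Calls were lost for BIRC2 without KO replicate 1 (−0.20) and for MCL1 without KO replicate 2 (0.16). MCL1 was past the threshold in 12 of the 14 settings, the reported one included. For BCL2L2 the call was lost without KO replicate 1 (0.29), KO replicate 2 (0.23) or WT replicate 2 (0.14), and with no filter (0.26). Of the necroptosis genes, MLKL measured 8.84 and 8.35 FPKM and was not past the threshold, and RIPK3 had 1 fragment in all (KO replicate 2).

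**Figure D3:**
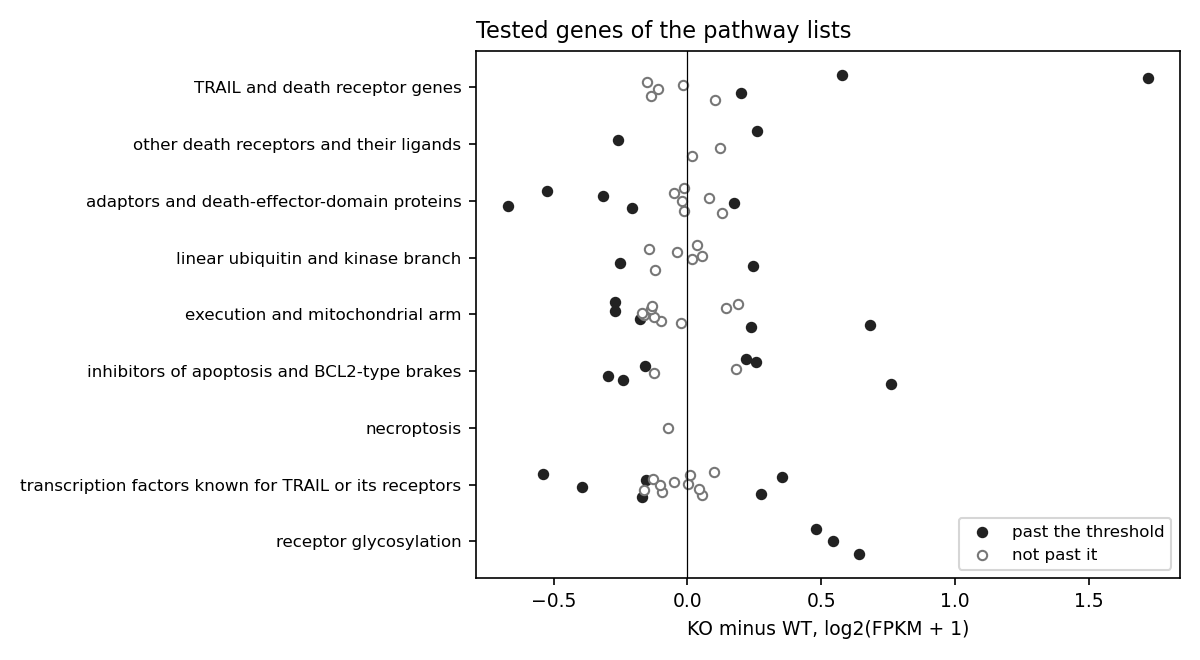
Differences of the tested genes in the 8 pathway lists and, in the top row, of the 8 tested TRAIL and death receptor genes, on the log2(FPKM + 1) scale. Filled points are past the threshold and open points are not, and the vertical offset within a row only separates points. Receptor glycosylation is the row with all tested genes to the right, and TNFSF10 is the point farthest right.

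Transcription factors known for acting on TRAIL or its receptors gave 2 rises and 4 falls among 16 tested (median −0.072). NFKB1 rose from 11.1 ± 0.400 to 14.5 ± 0.0289 FPKM (0.36, limma adjusted p = 0.00134). IRF1, which binds interferon-type elements, rose from 8.93 ± 0.0268 to 11.0 ± 0.338 FPKM (0.28, adjusted p = 0.00438). Without KO replicate 2 IRF1 was not past the threshold (0.25). STAT2 and IRF9 were not past the threshold (0.054 and 0.042). DDIT3 (CHOP), a stress factor known to induce TNFRSF10B, fell from 27.9 ± 1.04 to 18.9 ± 0.302 FPKM (−0.54, adjusted p = 0.000187). FOXO1, a forkhead factor known for TNFSF10, fell by 0.39.

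All 3 tested genes of receptor glycosylation rose, beside 21.6% of all tested genes, and 3 genes are too few to read a share from. GALNT3, which starts O-glycans of the mucin type, rose from 4.96 ± 0.136 to 8.29 ± 0.236 FPKM (0.64, SE 0.058, limma adjusted p = 0.000112). C1GALT1, which extends them, rose by 0.55, and its chaperone C1GALT1C1 by 0.48. The list has 6 genes. GALNT14, a related enzyme known for TRAIL receptor glycosylation, had 1 fragment in all (KO replicate 1), and FUT3 and FUT6 were under 0.1 FPKM in every library.

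Within the TNF superfamily TNFSF10 moved from place 3 of 18 ligand genes in WT to the first place in KO, by FPKM on the table's lengths. TNFSF12 (TWEAK) measured 4.41 ± 0.370 FPKM in WT and 5.47 ± 0.338 FPKM in KO, and rose (0.26, limma adjusted p = 0.0175). This call was lost without KO replicate 1 (0.20) and with no filter (0.26). TNFSF9 (4-1BB ligand) measured 4.07 and 4.23 FPKM and was not past the threshold. These were the 2 other ligands tested, and 15 were under the filter. FASLG, the ligand of FAS, stood at 0.141 and 0.126 FPKM. Of the 7 tested receptors outside the TRAIL group, 1 rose and 4 fell (median −0.26). That is 71.4% past the threshold, against 49.9% of all tested genes (21.6% higher, 28.4% lower, median −0.041), and 7 genes are few. TNFRSF14 (HVEM) rose from 3.90 ± 0.227 to 6.10 ± 0.347 FPKM (0.54, adjusted p = 0.000432). RELT fell by 0.53, LTBR, the lymphotoxin beta receptor, by 0.43, CD40 by 0.28 and TNFRSF12A, the TWEAK receptor, by 0.26. TNFRSF12A was not past the threshold without KO replicate 2 (−0.21), with median-of-ratios scaling (−0.21) or with no filter (−0.26). TNFRSF1A, the main receptor for TNF, measured 76.4 and 77.3 FPKM and was not past the threshold (0.016).

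**Figure D4:**
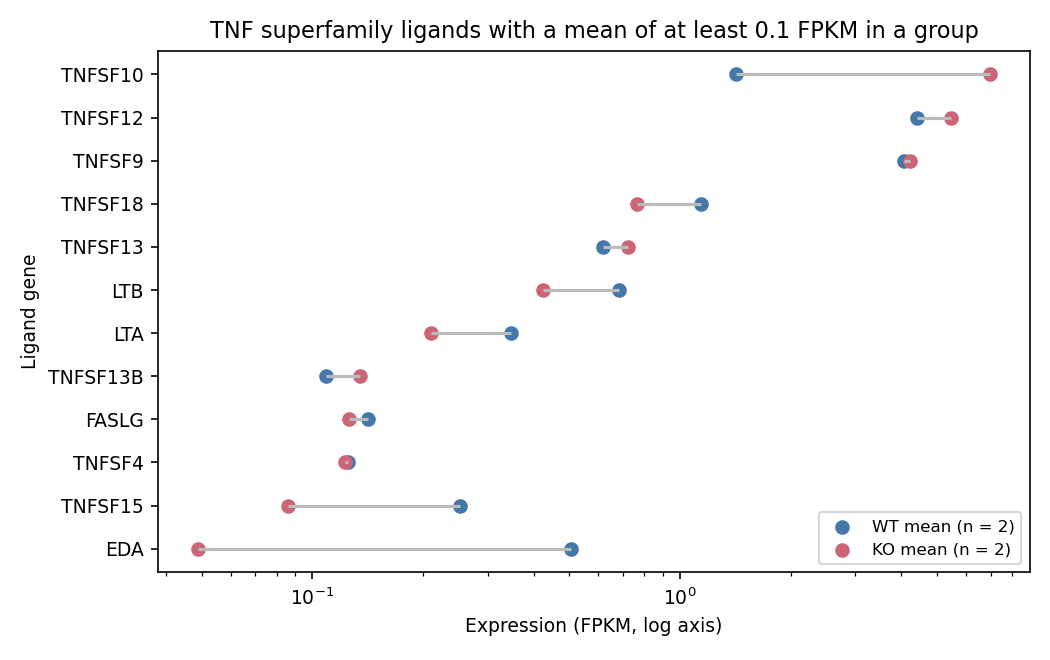
Mean FPKM of the 12 TNF superfamily ligand genes with at least 0.1 FPKM in a group, on a log axis, ordered by the KO mean. Blue points are WT and red points are KO means of 2 libraries, joined by a line. TNFSF10 goes from 1.42 to 6.98 FPKM and passes TNFSF12 and TNFSF9, and EDA at the bottom goes from 0.505 to 0.0489 FPKM.

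Position was not used to choose the genes. The 4 genes TNFRSF10A to TNFRSF10D lie side by side on chromosome 8, and CASP8 and CFLAR lie together on chromosome 2, so their neighbours are shared. Within 1 Mb of any of the 10 genes 65 other genes were tested, of which 9 rose and 18 fell. Over all tested genes 21.6% were higher and 28.4% lower, and these shares stand beside each count of neighbours below. The median of the neighbours was −0.044, beside −0.041 over all tested genes. Around the TRAIL receptors 25 were tested, with 3 rises, 6 falls and a median of −0.084. Their largest changes were in BMP1 (0.74), a procollagen protease, and in HR (−0.98), a nuclear corepressor. Around CASP8 and CFLAR 18 were tested, with 3 rises, 2 falls and a median of 0.029, and KCTD18 (0.62) and AOX1 (−0.51) changed most.

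TNFSF10 had 4 tested neighbours, of which 0 rose and 2 fell (median −0.078). The lowest was NCEH1 (−0.37), a lipid hydrolase, and the highest was PLD1 (0.12), which was not past the threshold. Around TNFRSF11B, MAL2 rose by 0.55 and CCN3 fell by 0.69 among 5 tested genes. FAS had 7 tested neighbours, with 1 rise (KIF20B, 0.21) and 3 falls (median −0.14). They include the interferon-induced genes IFIT1 (−0.18), which fell, and IFIT2, IFIT3 and IFIT5 (−0.13, −0.044 and −0.14), which were not past the threshold. The calls on KIF20B (0.15) and IFIT1 (−0.19) were lost without KO replicate 2, and that on IFIT1 also without KO replicate 1 (−0.17). With no filter both missed the threshold (0.21 and −0.18), and IFIT1 did so with median-of-ratios scaling (−0.14). Around FADD 1 of 6 rose and 3 fell (median −0.16), and MYEOV changed most (−0.36).

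**Figure D5:**
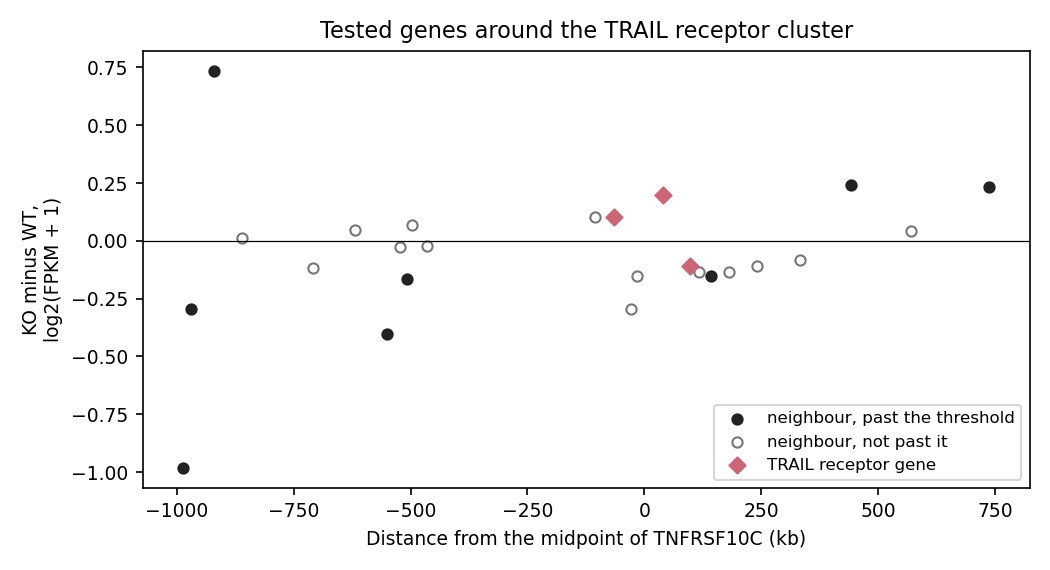
Difference between KO and WT libraries on the log2(FPKM + 1) scale for tested genes within 1 Mb of TNFRSF10C, against the distance from its midpoint in kb. Filled circles are past the threshold, open circles are not, and red diamonds are the 3 tested TRAIL receptor genes. The diamonds lie between −0.11 and 0.20, among neighbours that differ little, and the largest differences, HR and BMP1, are at the left edge.

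The 5 protein-coding genes whose values lay nearest to those of TNFSF10 were SERPINA1, PMEPA1, MAGEB2, S100A2 and ANXA8. Likeness was the Euclidean distance between log2(FPKM + 1) values centred on each gene's mean over the 4 libraries, and it ran from 0.0721 for SERPINA1 to 0.124 for ANXA8. SERPINA1, a protease inhibitor, went from 2.70 to 11.0 FPKM and MAGEB2, a cancer-testis antigen, from 2.63 to 10.3 FPKM. With 4 libraries in 2 groups, such likeness mostly reflects a like difference between the groups. ANXA8 has near-identical copies, so its reads cannot be assigned with certainty. It averaged 0.680 FPKM in WT and 4.50 FPKM in KO, so it passed the filter only through its KO level.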

How the data were processed

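Total RNA of cultured MDA-MB-231 cells went to a company for Illumina sequencing, per the labels' protocols. STAR, Subread and DESeq2 are named without version or role in the submitters' processing notes. Build, annotation and strandedness were not given in the sources used here. Per the file headers, the deposited table holds FPKM of 39259 genes by Entrez ID. Products of FPKM and kilobases added up to 1000000 per library, and 100% of the values above 0 were whole multiples of the smallest (tolerance 0.001), which gave the fragments and depths. Symbols came from a RefSeq table on GRCh38.p14 for 96.0% of genes. Of the matched genes, 98.4% had a start or end within 1000 bp of that assembly. Counting found 0 columns of other samples.

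The 4 libraries were grouped by title. Tests used limma 3.58.1 (R 4.3.3; lmFit, then eBayes with its trend and robust options) on log2(FPKM + 1). Genes averaging under 1 FPKM were left out, and differences are KO minus WT, with Benjamini-Hochberg adjustment over everything tested. Scripts were tested on simulated data. The genes and lists were chosen with earlier results of these data known. Named genes were the 10 genes, RIOX2, up to 4 called genes with the largest change per list and 1 in the other direction, 5 genes nearest in pattern to TNFSF10 and the extreme neighbours. MCL1, BCL2L1, PECAM1, COL1A1 and the IFIT genes, and genes named as not past the threshold or under the filter, were named after their values were seen. Some listed genes are not reported here by name, but they remain in the counts. Alternatives were a pseudocount of 0.1, no filter or one at 5 FPKM, quantile and median-of-ratios scaling, limma without trend or robust, voom on fragments, leaving out each library and a replicate block. A group left with 1 library was assumed to vary like the other group, so calls made with 1 WT library rest on the spread of the KO libraries. A crossed replicate block and GENCODE 29 transcript lengths were added after the data were seen. Within groups, chi-square per degree of freedom was 7.62 for WT and 5.30 for KO, above counting noise, so all 4 libraries were kept. Intervals are exact binomial ones and cover counting error only.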

Additional observations from a re-analysis of the deposited data

How the results depend on the processing

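The number of genes past the threshold was 2527 higher and 3323 lower. Leaving out 1 library in turn gave 1542 to 3104 higher and 1996 to 3973 lower, with the lowest counts without a KO library (1733 and 2069 without KO replicate 1). Of called genes 43.2% were higher, and 51.9% with median-of-ratios scaling. Of the 10 genes, 3 were past the threshold as higher and 0 as lower. With 1 library left out these counts ran from 2 to 4 and from 0 to 2. A filter at 5 FPKM gave 1 as higher, because it removed TNFSF10 and TNFRSF11B. As lower there was 1 with no filter (FAS), 1 with voom (CFLAR) and 1 with a crossed replicate block (FADD). Pathway genes counted 13 rises and 16 falls, 7 to 17 and 8 to 23 with 1 library left out, and 9 falls with median-of-ratios scaling. The ratio of CFLAR to CASP8 differed by −0.037 (KO minus WT), and by −0.0415 to −0.0326 with 1 library left out. Per median coding transcript it differed by −0.278, which is the same difference rescaled by the lengths. The decoy ratio was 0.0326 higher (0.0178 to 0.0474). The neighbours' median was −0.0441, −0.0865 within 5 Mb and −0.0129 with no filter. With 1 library left out TNFRSF10A ran from −0.253 to 0.0335 and CASP8 from −0.0306 to 0.000372. TNFRSF10A turned without WT replicate 1 (0.0335) and CASP8 with median-of-ratios scaling (0.0256) and without KO replicate 2 (0.000372), and the cause was not tested. For 48 other genes read under the alternatives, 557 values kept direction and side of the threshold, 50 lost and 6 gained the call, and none of these turned. The 6 gains were all RIOX2, as higher.

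The labels number the libraries 1 and 2 in both groups and name no shared culture, so equal numbers were not taken as pairs. With the replicate block 2348 genes were higher and 3029 lower, 3 and 0 of the 10 genes, and 12 and 12 pathway genes. FAF1 (0.17) and IFIT1 (−0.18) were not past the threshold in that fit (limma adjusted p = 0.08 and 0.0652). The deviations of same-numbered libraries correlated at −0.225 across 11716 genes, which are not independent, and the crossed block gave 2839 and 3821 genes. Depth limits TNFRSF10C most, with 25 fragments in WT replicate 2.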

Other observations

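Genes of the family that lay under the filter were read from the fit with no filter, where 19.0% of 25798 genes were past the threshold. They were named after their values were seen. EDA, the ligand ectodysplasin, fell from 0.523 and 0.486 FPKM in WT to 0.0323 and 0.0654 FPKM in KO, from 270 and 125 fragments to 18 and 39 (log2 −0.52, SE 0.048, limma adjusted p = 0.0102). TNFRSF25 (DR3), a death receptor, rose from 0.441 and 0.433 to 0.880 and 0.891 FPKM (0.39, adjusted p = 0.015). TNFRSF1B, the second TNF receptor, fell from 0.587 and 0.645 to 0.290 and 0.330 FPKM (−0.30, adjusted p = 0.0284). BCL2, the founding brake on mitochondrial apoptosis, fell from 0.845 and 0.740 to 0.439 and 0.461 FPKM (−0.31, adjusted p = 0.0322). Of the 20 pathway genes under the filter, these were 1 rise and 2 falls (TNFRSF25, TNFRSF1B and BCL2). CASP10, the close relative of CASP8, measured 0.861 and 0.777 FPKM in WT and 0.947 and 0.902 FPKM in KO and was not past the threshold.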
